A study of Arabidopsis thaliana with 3 samples.

Results

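Considered here are 11933 probe sets that each name a single Arabidopsis thaliana gene by a locus code alone. Those of 60 genes passed a signal filter and lay at least 1.5-fold from wild type, oppositely in a WRKY6 overexpressor and a WRKY6 knockout. Of these, 24 genes had a higher signal in the overexpressor and a lower one in the knockout, and 36 had a lower signal in the overexpressor and a higher one in the knockout. A gene was taken where its probe set named 1 gene by a locus code alone, where the highest of the 3 arrays reached a signal of 174.6, and where both log2 ratios to wild type were at least 0.585 in size, which is 1.5-fold, with opposite sign. Signals below 45.5 were first raised to that floor, and folds that involve a raised signal are given as "at least". Of the locus-coded probe sets, 5559 reached the signal filter, and the members were 0.432% of these in the first direction and 0.648% in the second. Over all Arabidopsis probe sets past the filter the shares were 0.528% and 0.608%, near those of the members. The members were thus chosen by their signals and ratios on these same arrays, so the shares restate the rule, and every ratio of a member below is a description.

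Whole seedlings harvested at 7 days were compared, with 1 Affymetrix array per genotype. The wild type is labelled as the Columbia ecotype, for which the labels of the other arrays give no entry. The line 35S:WRKY6-9, called 35S:WRKY6 here, is a single overexpressing line in which the cauliflower mosaic virus 35S promoter, active in most plant tissues, drives WRKY6. The line wrky6-1 is a single knockout allele. How many seedlings went into each RNA sample is not given in the sources used here. No genotype was replicated, so no test was run, and each difference is one between 2 arrays with no replicate check. In whole seedlings, fewer cells of a type and less RNA per cell cannot be told apart.

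WRKY6 belongs to the plant WRKY family of transcription factors, which bind the W box, a short promoter element with a TTGAC core. It is known from senescing leaves and pathogen responses, and as a repressor of the phosphate exporter gene PHO1 and an activator or repressor at other promoters. A gene whose transcript follows WRKY6 abundance would lie on opposite sides of wild type in the 2 lines, and the sign would tell whether it goes with WRKY6 or against it.

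The arrays were alike in range, with median signals of 182 for wild type, 169 for 35S:WRKY6 and 173 for wrky6-1. WRKY6 itself (AT1G62300) had signals of 322, 9245 and 12.1 in that order, which matches the labels. Probe sets for the same gene, available for 47 genes, gave an SD of a single log2 ratio of 0.25 for 35S:WRKY6 and 0.23 for wrky6-1 against wild type. Variation between plants and between RNA preparations is not in these SDs. Throughout, 3 signals in a row are those of wild type, 35S:WRKY6 and wrky6-1, and 2 log2 ratios in a row are those of 35S:WRKY6 and wrky6-1 against wild type. Of the shoot markers 2 of 4 had a named probe set. RCA, the gene of Rubisco activase, had log2 ratios of 0.34 and 0.35. LHCB4.2, for a protein of the light-harvesting antenna, had -0.40 and -0.47. Their summed signals were 39264, 39826.5 and 39259.6. Of the root markers 3 of 4 had one, with sums of 14519, 18057 and 18511, so transcripts of both organs were present on every array.

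Both ratios were taken against the same wild-type array, and by the rule wild type lies between the lines for every member. Among the 5559 locus-coded probe sets, the 60 members made up 1.08%, beside 1.14% of all Arabidopsis probe sets past the filter. Differences of 1.5-fold in the same direction in both lines were more common. Of the 5559, 4.07% were higher in both lines and 9.44% lower in both. At 2-fold in each line, 4 members remained in the first direction (0.072% of the locus-coded probe sets) and 6 in the second (0.108%). Over all Arabidopsis probe sets past the filter, 0.144% passed at 2-fold in each direction. None of the 64 Affymetrix control probe sets passed the rule.

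**Figure D1:**
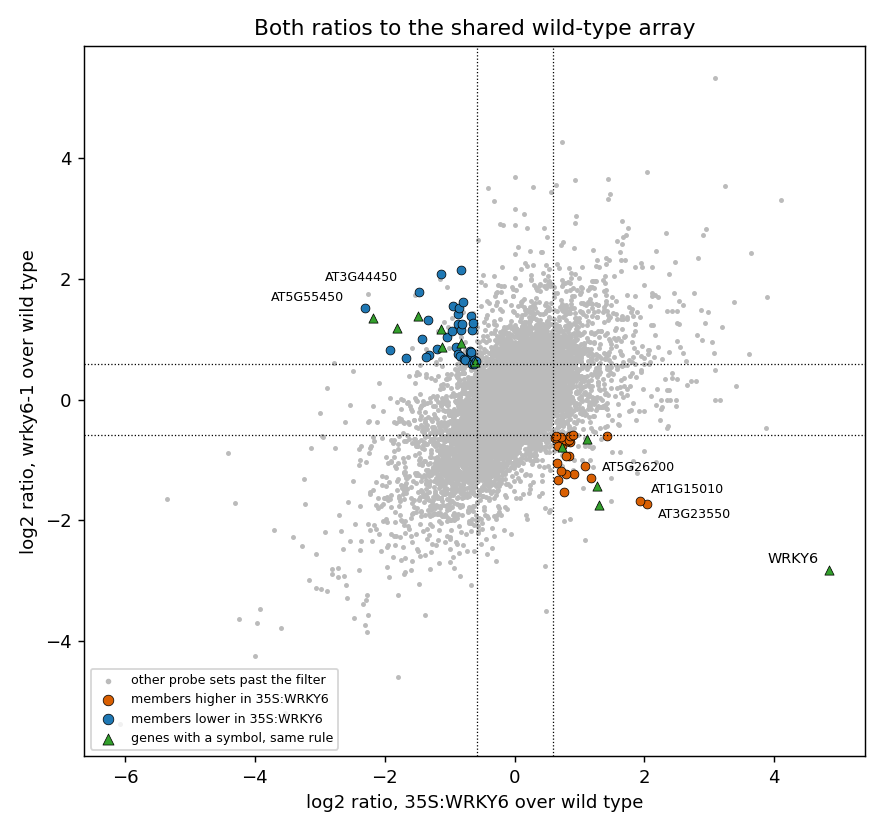
Log2 ratio of 35S:WRKY6 over wild type (horizontal) and of wrky6-1 over wild type (vertical) for every Arabidopsis probe set past the signal filter, as grey points. The 24 members higher in 35S:WRKY6 lie at the lower right, the 36 lower ones at the upper left, triangles are genes with a symbol under the same rule, dotted lines mark 0.585 in size, and probe sets that differ from wild type in the same direction in both lines lie along the other diagonal.

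The 24 genes that followed WRKY6 had signals of 98.1 to 2566 in wild type, with a median of 266, a median of 490.0 in 35S:WRKY6 and a median of 121 in wrky6-1. Their log2 ratios to wild type ran from 0.63 to 2.04 in 35S:WRKY6, with a median of 0.80, and from -1.73 to -0.59 in wrky6-1, with a median of -0.85. Over all locus-coded probe sets past the filter the medians were -0.05 and -0.04. The knockout ratio was the larger in size for 13 of the 24 genes and the overexpressor ratio for 11. In 8 genes (33.3%) wild type itself lay under the filter, and these were measured only through 35S:WRKY6. Of all locus-coded probe sets past the filter, 8.22% had wild type under it, and their median wild-type signal as a whole was 448.

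**Figure D2:**
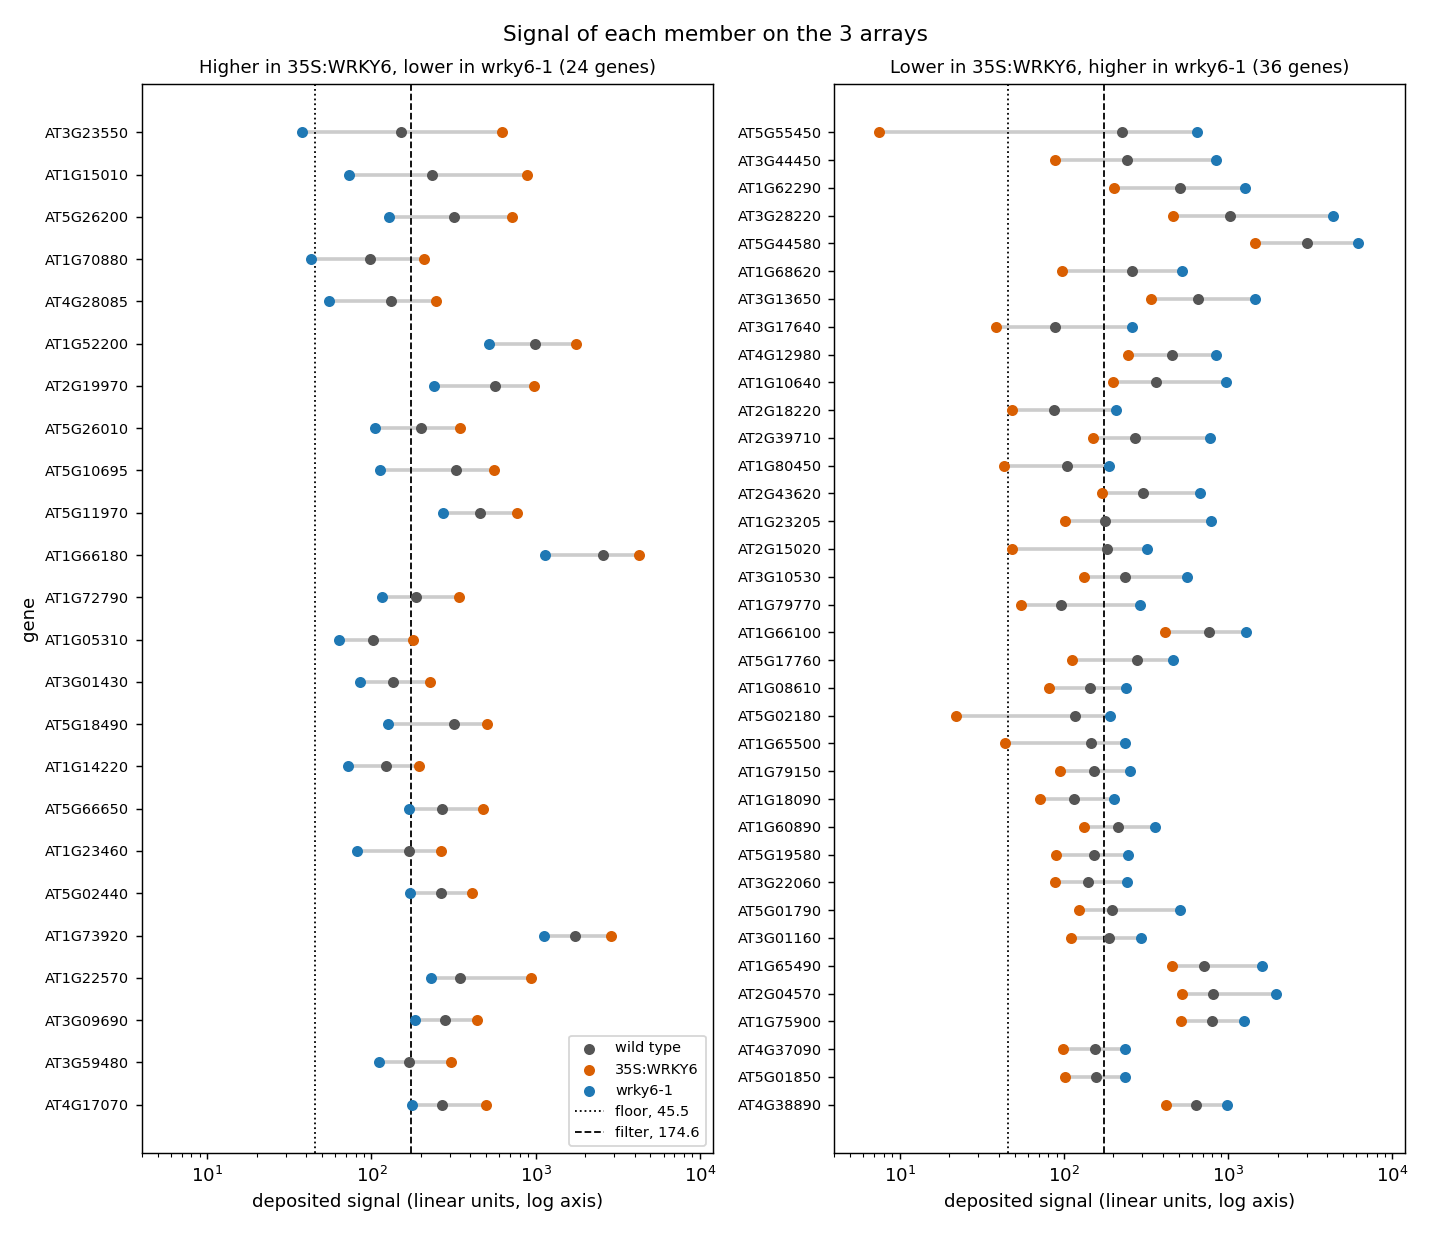
Deposited signal of each member gene on the wild-type, 35S:WRKY6 and wrky6-1 arrays, on a log axis, ordered by the smaller of the 2 log2 ratios in size. Wild type lies between the lines in all 24 genes on the left and all 36 on the right, which the rule fixes, and 7 members have an array under the floor of 45.5.

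What the encoded proteins do is given below from general knowledge of Arabidopsis protein families, since the annotation used here carries only the locus code. Roles are given for 14 of the 24 genes that followed WRKY6 and 29 of the 36 that ran against it. The role groups were formed after the members were known, and no enrichment was tested. Roles were not assigned to the other locus-coded genes, so the counts by group have no background share.

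Transport proteins were 5 of the 24. AT3G23550 encodes a member of the MATE family of efflux transporters, which export small organic molecules. Its signals were 151, 619 and 37.6, highest in the overexpressor. It was 4.10-fold higher in the overexpressor and at least 3.32-fold lower in the knockout, a difference of at least 13.6-fold between the lines, and it had the largest value of the smaller ratio among the 24. AT5G26200 encodes a mitochondrial substrate carrier, a protein of the inner membrane that moves metabolites. It had signals of 316, 712 and 128. It was 2.25-fold higher in the overexpressor and 2.47-fold lower in the knockout. AT1G52200, of the PLAC8-domain family that includes metal resistance proteins, was bright on all arrays at 986, 1771 and 518, a fold of 1.80 upwards in the overexpressor and 1.90 downwards in the knockout. AT1G22570, of the nitrate and peptide transporter family, had 348, 938 and 229, and its 2.69-fold difference in the overexpressor was paired with a knockout fold of 1.52, just past the threshold. AT5G66650, of the mitochondrial calcium uniporter family, had 268, 480.0 and 169.

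The 3 root markers with a named probe set had a higher signal in 35S:WRKY6 than in wild type. PYK10 and EXPA18 were above wild type in wrky6-1 as well, and the summed signal was highest there. EXPA7 and EXPA18, root hair expansins, had signals of 128, 243 and 113 and of 179, 305 and 195, and PYK10, an abundant root β-glucosidase, had 14213, 17509 and 18203. COBL9, the other marker on the root list, has no named probe set here. EXPA7 and EXPA18 were at least 1.5-fold higher in 35S:WRKY6, as were 10.2% of all Arabidopsis probe sets past the filter, and none of the 3 was 1.5-fold lower in wrky6-1, as were 18%. The part of root transcripts in the 24 genes was not tested.

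Families grouped here as defence-type gave 2 of the 24 genes. AT1G70880, of the major latex protein family of small ligand-binding proteins, had 98.1, 207 and 43.0, which is 2.11-fold higher in the overexpressor and at least 2.16-fold lower in the knockout. AT2G19970 belongs to the CAP family of secreted proteins, to which the pathogenesis-related protein PR1 belongs, and had 564, 979 and 239. Its knockout fold of 2.36 was larger than its overexpressor fold of 1.74. Cell wall enzymes gave 2 genes as well. AT1G05310, of the pectin methylesterase family, had 102, 179 and 63.0 and lay just inside the signal filter. AT1G23460, of the polygalacturonase family that cuts pectin, had 170, 267 and 81.5, read by a probe set of a type that can match related transcripts.

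Further enzymes and a signalling protein followed WRKY6. AT1G66180, of the aspartic protease family, was the brightest of the 24 genes at 2566, 4232 and 1133. AT1G73920, of the alpha/beta hydrolase superfamily, was the second brightest at 1742, 2874 and 1131. Both were well above the filter on every array, so the floor does not enter their ratios. AT5G26010, of a protein phosphatase family, had 199, 345 and 105. AT1G14220, of a secreted ribonuclease family, had 122, 194 and 71.8. AT3G59480, of the fructokinase family, which phosphorylates fructose on its way into metabolism, had 169, 306 and 112, with a knockout fold of 1.51 at the threshold.

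For the remaining 10 genes in this direction no role is given. AT1G15010 stood out among them with 233, 890.0 and 72.8, which is 3.83-fold higher in the overexpressor, 3.19-fold lower in the knockout and 12.2-fold apart between the lines. AT4G28085 had 131, 247 and 55.3, with folds of 1.89 and 2.36. These 2 genes, with AT3G23550, AT5G26200, AT1G70880 and AT1G52200, had the 6 largest values of the smaller ratio. AT5G10695 had 325, 554 and 113, and AT5G18490 had 318, 508 and 126. In both, the knockout fold, 2.88 and 2.52, was larger than the overexpressor fold, 1.70 and 1.59. AT5G11970 had 460.0, 766 and 271. AT1G72790 had 188, 339 and 116. AT3G01430 had 135, 227 and 84.6. The other 3 lay close to the threshold in the knockout. AT5G02440 had 265, 409 and 171. AT3G09690 had 281, 436 and 185. AT4G17070 had 267, 500.0 and 178, the member nearest to the threshold in this direction, with a knockout log2 ratio of -0.59.

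The 36 genes that ran against WRKY6 had wild-type signals of 87.4 to 2999.8 with a median of 218, a median of 106 in 35S:WRKY6 and a median of 517 in wrky6-1. Their log2 ratios ran from -2.30 to -0.59 in 35S:WRKY6, with a median of -0.85, and from 0.59 to 2.14 in wrky6-1, with a median of 0.95. The knockout ratio was the larger in size in 20 of the 36 and the overexpressor ratio in 16. In 13 genes (36.1%) wild type lay under the filter, against 8.22% of all locus-coded probe sets past it. These 13 were measured only through wrky6-1.

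Families grouped here as defence-type, a grouping made after the members were known, made up 7 of the 36. AT5G55450 encodes a lipid transfer protein, a small secreted protein that binds lipids. Its signals were 224, 7.46 and 642. It was at least 4.92-fold lower in the overexpressor, where it lay far under the floor, 2.87-fold higher in the knockout and at least 14.1-fold apart between the lines. AT3G28220, of the TRAF-like family, had 1022, 464 and 4319.9. It was 2.20-fold lower in the overexpressor and 4.23-fold higher in the knockout, and was above the filter on all arrays. AT3G13650, of the dirigent family that steers the coupling of phenolic radicals, had 657, 337 and 1454. AT2G43620, of the chitinase family, which cuts fungal cell wall chitin, had 302, 171 and 669.8. AT1G66100, which encodes a thionin, a small antimicrobial peptide, had 759, 414 and 1278. Of these 3, the first 2 had a knockout fold above 2 (2.21 and 2.22), and the thionin gene had 1.68. AT3G17640, of the leucine-rich repeat family, had 87.6, 38.8 and 258, so its overexpressor fold of 1.93 is a lower bound. AT3G22060, of a cysteine-rich secreted family related to receptor kinases, had 139.7, 87.8 and 240.2.

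Signalling proteins were 4 of the 36. AT3G44450 encodes an inhibitor of the cryptochromes, the blue-light receptors of the plant. It had a signal of 243, 87.7 and 837, was 2.77-fold lower in the overexpressor and 3.44-fold higher in the knockout, and differed 9.55-fold between the lines. AT1G80450 encodes a VQ motif protein, of a family known to bind WRKY factors. Its signals were low, at 104, 43.1 and 187, so it lay just inside the filter and its overexpressor fold is at least 2.29. AT1G60890, of the phosphatidylinositol phosphate kinase family, had 212, 132 and 356. AT5G01850, of the protein kinase family, had 156, 101 and 235, with a knockout fold of 1.51.

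Aspartic proteases gave 2 genes here, against 1 in the other direction. AT1G62290, which encodes a protease of the vacuolar type, had 505, 201 and 1260.3, a fold of 2.52 downwards in the overexpressor and 2.49 upwards in the knockout. AT2G39710, of the wider aspartic protease family, had 272, 151 and 779, with a knockout fold of 2.86. Cell wall proteins gave 3. AT1G10640, of the polygalacturonase family, had 363, 199 and 969. AT1G23205, of the family of pectin methylesterase inhibitors, had 178, 101 and 787, and its 4.41-fold difference was the largest knockout fold of all 60 members. AT5G19580, of the glyoxal oxidase family that makes hydrogen peroxide in the wall, had 153, 89.3 and 244. Pectin enzymes were therefore present in both directions, with AT1G05310 and AT1G23460 going with WRKY6 and AT1G10640 against it.

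Lipases and esterases gave 3 genes. AT1G68620, of the carboxylesterase family, had 261, 96.6 and 525, which is 2.70-fold lower in the overexpressor and 2.02-fold higher in the knockout. The GDSL lipase gene AT2G04570 had 810.5, 523 and 1951. Another GDSL lipase gene, AT1G75900, had 798, 516 and 1253. Both GDSL genes were bright on all arrays, with overexpressor folds of 1.55 each.

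Proteins of ribosome assembly and RNA maturation were 6 of the 36 and 0 of the 24. AT2G18220, of the Noc2 family, which takes part in assembling the large ribosomal subunit in the nucleolus, had 87.4, 47.9 and 208. AT1G79150, of the Noc3 family, which acts in the same process, had 152, 94.2 and 253. It is the only member with a second single-gene probe set, which gave 175, 115 and 218, with log2 ratios of -0.61 and 0.31. That second probe set reached 1.5-fold in the overexpressor and not in the knockout. AT3G10530, a WD40 repeat protein of the nucleolus, had 234, 133 and 558. AT3G01160, of a family that processes pre-ribosomal RNA, had 187, 109.9 and 294. The remaining 2 act on other RNAs. AT4G38890, of the transfer RNA dihydrouridine synthase family, had 632, 420.4 and 985, with an overexpressor log2 ratio of -0.59 at the threshold. AT1G08610, of the pentatricopeptide repeat family, which processes RNA in organelles, had 144, 80.6 and 239. Apart from AT4G38890 and AT3G10530, these genes had wild-type signals of 87.4 to 187. Of this group only AT3G10530 and AT3G01160 passed the rule under every scaling and floor tried.

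**Figure D3:**
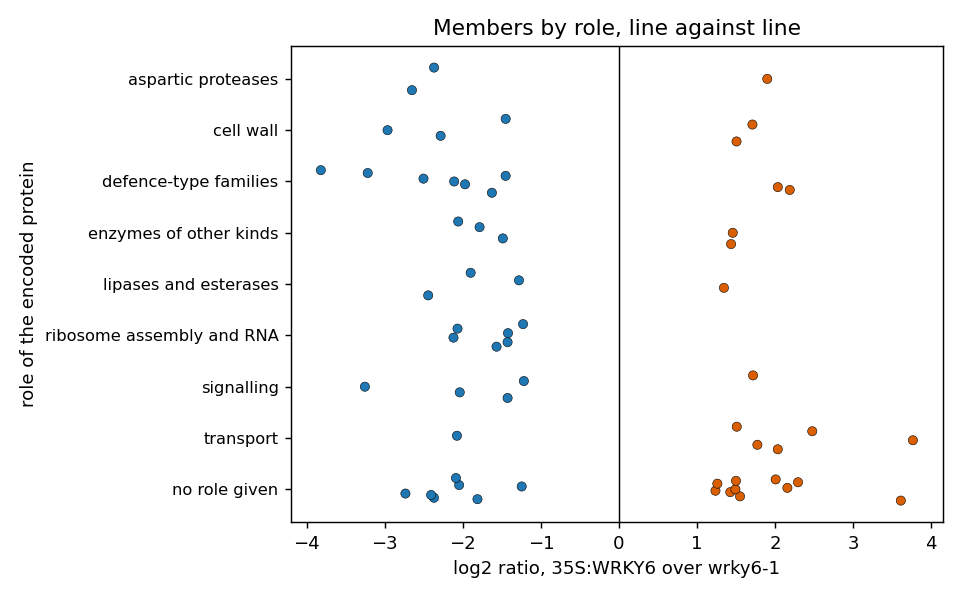
Log2 ratio of 35S:WRKY6 over wrky6-1 for each member, 1 point per gene, by the role of the encoded protein, with the 24 genes that followed WRKY6 on the right and the 36 that ran against it on the left. The 6 genes of ribosome assembly and RNA lie on the left, and 5 of the 6 transport genes lie on the right. The role groups were formed after the members were known and have no background share. The gap around 0 is set by the rule.

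The single amino acid transporter in this direction, AT5G02180, had 117, 22.0 and 192, and its overexpressor fold of 2.58 is a lower bound. Enzymes of other kinds were 3. AT5G17760, an AAA-type ATPase, had 276, 111 and 464, with the larger fold, 2.48, in the overexpressor. AT4G12980, of a family of membrane cytochromes, had 456, 244 and 839. AT1G18090, of a DNA exonuclease family, had 116, 71.7 and 201.

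For 7 genes in this direction no role is given. AT5G44580 was the brightest of the 60 members in wrky6-1, with 2999.8, 1453 and 6179, and folds of 2.06 in each line. With AT5G55450, AT3G44450, AT1G62290, AT3G28220 and AT1G68620 it had the 6 largest values of the smaller ratio, and these 6 are the members that reached 2-fold in each line. AT2G15020 had 182, 48.2 and 321, an overexpressor fold of 3.78. AT1G79770 had 95.3, 55.0 and 292. AT5G01790 had 195, 123 and 508. AT4G37090 had 155, 99.0 and 235. The last 2 are neighbours, AT1G65490 with 716, 455 and 1600.0 and AT1G65500 with 145, 44.0 and 235. AT1G65490 had the larger fold in the knockout (2.23), and AT1G65500 had it in the overexpressor (at least 3.19).

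Compared directly, the lines differed at least 4-fold in 28 locus-coded probe sets with the higher signal in 35S:WRKY6 (0.504%) and in 41 with the higher signal in wrky6-1 (0.738%). Over all Arabidopsis probe sets past the filter these shares were 0.632% and 0.768%. Members were 9 of the 28 and 20 of the 41. The other probe sets at that fold had a ratio to wild type under 1.5-fold in 1 of the lines, or both ratios of the same sign. Across the members the direct log2 ratio ran from 1.24 to 3.77, with a median of 1.71, in the genes that followed WRKY6. In those that ran against it, it ran from -3.82 to -1.22, with a median of -2.05.

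The position of the members on the chromosomes was not used to choose them. AT1G62290 is the gene next to WRKY6 (AT1G62300) in the order of protein-coding genes. Its signal ran against that of WRKY6, at 505, 201 and 1260.3 against 322, 9245 and 12.1. Of the 8 protein-coding genes on each side of WRKY6, 6 had a named probe set and 3 reached the filter. Besides AT1G62290 these were AT1G62250, with log2 ratios of 0.06 and 0.44, and AT1G62330, with -0.13 and 0.00. AT1G62290 was the 1 of the 3 measured neighbours with a difference of 1.5-fold in either line. As AT1G62290 is a member, the rule required that difference of it. On the other side of WRKY6, the next gene, AT1G62305, has no named probe set here. Where the insertion of wrky6-1 or the transgene of 35S:WRKY6 lies relative to AT1G62290 was not analysed here.

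**Figure D4:**
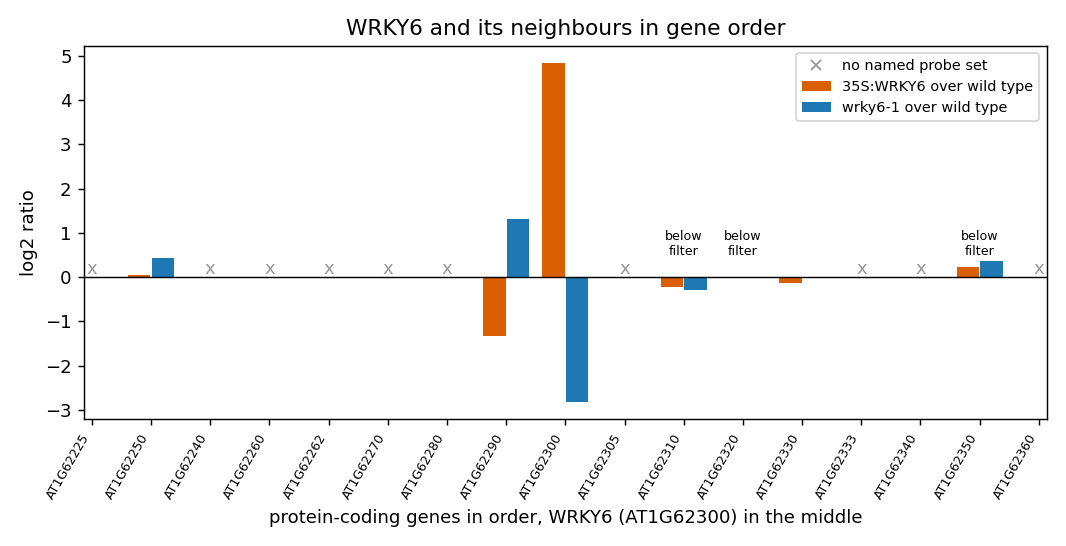
Log2 ratio to wild type of 35S:WRKY6 (orange bars) and wrky6-1 (blue bars) for WRKY6 and the 8 protein-coding genes on each side, in gene order; a cross marks a gene with no named probe set, and genes that do not reach the filter are marked. AT1G62290, next to WRKY6, has bars of opposite sign to those of WRKY6, at -1.33 and 1.32, and the other named neighbours have bars of at most 0.44 in size.

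Of the 24 genes that followed WRKY6, the direct neighbours in gene order gave 17 measured probe sets, of which 0 passed the rule in either direction. Of the 36 that ran against it, the direct neighbours gave 18, of which 3 passed. Those 3 are WRKY6 beside AT1G62290, and AT1G65490 and AT1G65500 beside each other. WRKY6 is the gene altered in both lines, and AT1G65490 and AT1G65500 are members chosen by the rule. The count of 3 is thus not independent of the design and the rule. Among the neighbours of all 5559 locus-coded genes, 0.997% of 3009 passed. The median log2 ratios of the neighbours were 0.01 and 0.04 in the first direction and 0.07 and 0.10 in the second, in 35S:WRKY6 and wrky6-1, so the genes beside the members did not share their ratios as a group. Within 10 genes of each other lay 3 pairs of members, AT1G65490 with AT1G65500, AT5G01790 with AT5G01850, 6 genes apart, and AT1G66100 with AT1G66180, 9 genes apart. The first 2 pairs ran the same way, and the last pair ran in opposite directions. Chromosome 1 held 10 of the 24 (41.7%) and 14 of the 36 (38.9%), against 26.5% of all locus-coded probe sets past the filter. Chromosome 2 held 1 and 5, chromosome 3 held 4 and 7, chromosome 4 held 2 and 3, and chromosome 5 held 7 and 7. Of all locus-coded probe sets past the filter these chromosomes held 14.6%, 20.3%, 14.3% and 24.2%, in that order. No difference in share was tested.

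Genes that carry a symbol passed the rule at shares near those over all Arabidopsis probe sets past the filter, 0.528% and 0.608%. Of 1006 past the filter, 5 (0.497%) followed WRKY6, which is itself one of them, and 7 (0.696%) ran against it. At 2-fold in each line 3 (0.298%), again with WRKY6, and 4 (0.398%) passed, larger shares than the 0.072% and 0.108% of locus-coded probe sets. Over all Arabidopsis probe sets past the filter the 2-fold share was 0.144% in each direction. These differences in share rest on 3 and 4 symbol-carrying genes and were not tested. Besides WRKY6, the first set held the expansin-like gene EXLA1 with signals of 690, 1702 and 207. SCPL34, a serine carboxypeptidase-like gene, had 928, 2233 and 343. GAT1_2.1, of the glutamine amidotransferase class, was low at 138, 229.9 and 80.4. SRC2, known for its response to cold, was the brightest of these with 4991, 10772 and 3162. Among the 7 that ran against WRKY6, the cell wall protein gene ECS1 had 5517, 1959 and 14374. MSRB6, which repairs oxidised methionine, had 415, 91.2 and 1063. COR15A, a cold-induced chloroplast protein, had 913, 261 and 2081. LPR1, a multicopper oxidase of the root response to low phosphate, had 108, 49.2 and 242. IQD24, a calmodulin-binding protein gene, had 244, 113 and 448. The expansin-like gene EXLB1 had 269, 152 and 516. EXLA1 and EXLB1, of related expansin-like groups, thus lay in opposite directions.

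Lists of genes related to some members by family or function are given next. They were chosen with earlier results of these data known, so their counts are descriptions. Of 9 genes of cryptochrome and blue-light signalling 3 had a named probe set. One is AT3G44450, whose direction the rule fixed, and the other 2 were both at least 1.5-fold higher in wrky6-1, as were 14.5% of all Arabidopsis probe sets past the filter. AT3G52740, the other inhibitor of cryptochromes, had 237, 207 and 502, with log2 ratios of -0.20 and 1.08. HYH, a bZIP factor of light signalling, had 142, 162 and 313, with ratios of 0.19 and 1.14. Neither of the 2 passed the rule. Their median log2 ratios, without AT3G44450, were -0.01 and 1.11, beside -0.02 and -0.01 over all probe sets past the filter.

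Among lipid transfer proteins the other list genes differed in the other line. Of 13 genes 4 had a named probe set. One is AT5G55450, whose direction the rule fixed, and the other 3 were each at least 1.5-fold lower in 35S:WRKY6, as were 14.5% of all probe sets past the filter. AT4G12500 had 671, 223 and 600.5, with log2 ratios of -1.59 and -0.16. AT5G48490 had 3440.0, 1626 and 3294, with ratios of -1.08 and -0.06, and AT4G12490 had -0.67 and -0.29. None of the 3 was at least 1.5-fold higher in wrky6-1. Their medians, without AT5G55450, were -1.08 and -0.16.

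The other lists gave mixed values. Of the 3 vacuolar aspartic proteases, APA1 was very bright at 11493, 11889 and 10219.9, with log2 ratios of 0.05 and -0.17, against -1.33 and 1.32 for AT1G62290, and AT4G04460 did not reach the filter. Of the 3 mitochondrial carriers of the same kind as AT5G26200, AT1G72820 had ratios of -0.28 and -0.40 and AT5G15640 had 0.49 and 0.24. Of 14 cold and dehydration genes 5 had a named probe set. None is a member, and 1 of them, the symbol-carrying COR15A, passed the same thresholds. Its neighbour in function COR15B had 1139.9, 453 and 929, lower in the overexpressor like COR15A with a log2 ratio of -1.33, and at -0.30 in the knockout. COR27 was lower in both lines, with -1.37 and -3.57, and LTI30 was higher in both, with 0.72 and 1.04. In that list 3 of 5 were at least 1.5-fold lower in 35S:WRKY6 and 1 higher. Over all Arabidopsis probe sets past the filter the shares were 14.5% and 10.2%. In wrky6-1, 2 of the 5 were higher and 1 lower, beside shares of 14.5% and 18%. These counts include COR15A. The medians were -1.33 and -0.30. Of 7 genes reported as WRKY6 targets or partners 1 had a named probe set, WRKY42, which did not reach the filter.

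The threshold cuts a continuous range. Nearest inside it among the genes that followed WRKY6 were AT4G17070, AT3G59480 and AT3G09690, with a smaller log2 ratio of 0.59 to 0.60 in size, and nearest outside were AT3G43270 (0.57), AT3G18510 (0.55) and AT4G15680 (0.55). Among those that ran against it, AT4G38890, AT5G01850 and AT4G37090 lay just inside at 0.59 to 0.60, and AT1G55960 (0.58), AT5G62140 (0.58) and AT2G32430 (0.57) lay just outside. The signal filter left out 3 genes in the first direction, the nearest AT1G76270 with a highest signal of 143, and 5 in the second, the nearest AT5G54910 with 173. The smaller ratio was under 0.75 in 15 of the 24 and 17 of the 36. Under 3 other scalings of the arrays, 18 of the 24 and 25 of the 36 passed the rule each time. The 6 that did not were AT5G02440, AT1G73920, AT1G22570, AT3G09690, AT3G59480 and AT4G17070. The 11 in the other direction were AT1G79150, AT1G18090, AT1G60890, AT3G22060, AT5G01790, AT1G65490, AT2G04570, AT1G75900, AT4G37090, AT5G01850 and AT4G38890.

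**Figure D5:**
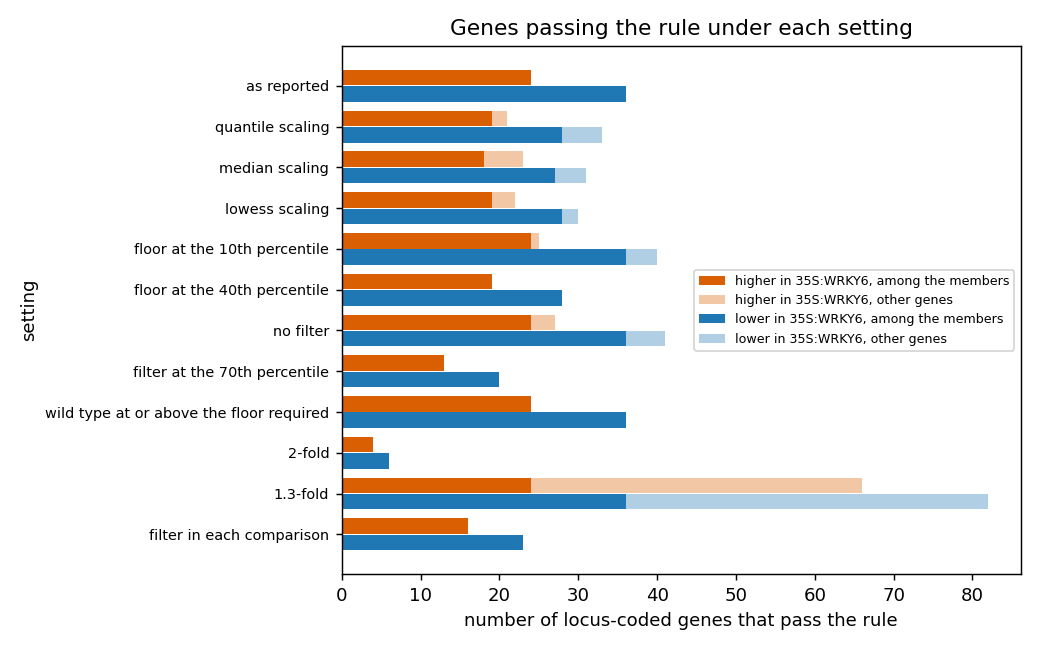
Number of locus-coded genes that pass the rule under each setting, with the genes that are members in solid colour and others in pale colour, for both directions. Counts range from 4 and 6 at 2-fold to 66 and 82 at 1.3-fold.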

How the data were processed

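The authors' deposited values are linear signal intensity, with a column for each of the 3 arrays and a row for each probe set. GCOS 1.0 and MAS5 are named, per the submitters' processing notes, with no role given, and no genome build is given in the sources used here. The 2% trimmed means were 500.0, 499.8 and 500.1, so scaling had been done before deposit and none was added. Of 22810 probe sets, 64 controls were set aside. The floor of 45.5 and the filter of 174.6 are the 30th and 50th percentiles of the pooled signals of the other 22746. Low intensities are imprecise after background subtraction, and precision is limited throughout by having 1 array for each genotype.

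Names come from the platform annotation, in which 13513 probe sets name 1 gene, 503 name several, and 8730 are not listed. Of the 11933 locus-coded ones, 11885 matched the TAIR10.1 gene table, used for names, chromosomes and gene order only. For list genes and neighbours with several probe sets the brightest was used. No promoter, protein or probe sequence was used here. The members, lists and alternatives were chosen with earlier results of these data known. All members were named, and in each direction the 6 whose smaller ratio was largest were given in full, with the 6 first symbol-carrying genes in the same order and the 2 list genes with the largest ratios. The code was tested on simulated data. Python 3.11.15, numpy 2.4.6, pandas 2.3.3 and statsmodels 0.14.6 were used. The alternatives were 3 scalings (quantile, median and lowess) and other floors, filters and folds.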

Additional observations from a re-analysis of the deposited data

How the results depend on the processing

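Under quantile, median or lowess scaling no member ratio moved by more than the SD between probe sets of a gene. Each member ratio is at least 0.585 in size by the rule, so shifts of that size could not change a sign. Membership was less stable, as 6 of the 24 and 11 of the 36 failed the rule under at least 1 of these scalings. Under the 3 scalings the counts stayed at 21 to 23 and 30 to 33. Under the 3 scalings and both floors, 13 of the 24 genes that followed WRKY6 and 19 of the 36 that ran against it passed each time. With the filter at the 70th percentile 13 and 20 genes passed, at 2-fold 4 and 6, and at 1.3-fold 66 and 82. With the filter applied to each comparison with wild type separately, an alternative chosen after seeing the data, 16 and 23 passed. With the floor at the 40th percentile the median log2 ratio of 35S:WRKY6 over wrky6-1 in the genes that ran against WRKY6 was -1.68 in place of -2.05, because more signals lay under that floor. A floor cannot turn a sign, but at that floor AT3G17640, AT2G18220 and AT1G79770 had a log2 ratio of 0.00 in 35S:WRKY6. With the floor at the 10th percentile that of AT5G02180 was -2.41 in place of -1.37. The search for W boxes was not run, since no promoter sequence was used here. No array could be left out, and no paired analysis was possible because each genotype had 1 array. Genes with a signal near the floor, such as AT1G80450 and AT1G70880, are the least precisely measured.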

Other observations

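The rule also picked up probe sets that the annotation used here does not tie to a single gene. Of 5943 such probe sets past the filter, 37 (0.623%) followed WRKY6, 34 of them unlisted, and 33 (0.555%) ran against it, all 33 unlisted. Over all Arabidopsis probe sets past the filter the shares were 0.528% and 0.608%. The median log2 ratio of 35S:WRKY6 over wrky6-1 was 2.00 among the 37 and -1.88 among the 33. Some were among the strongest opposite movers on the arrays. The unlisted probe set with the largest smaller ratio, chosen after its value was seen, had signals of 466, 97.5 and 1576 (wild type, 35S:WRKY6, wrky6-1). Among the next 5, the brightest had 3171, 8877 and 1291.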
